A study of Mus musculus with 15 samples.

Results

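Edar and Tnfrsf19 are receptors of the tumour necrosis factor (TNF) family, and they are described here through every probe set that the platform's annotation table assigns to either symbol. There were 5 such probe sets of 45101, 2 for Edar and 3 for Tnfrsf19, for 2 genes of 18194 measured by a probe set with a single symbol. The genes were picked out because they were already known to be higher in the Apc mutant cells of these same arrays, so their differences from wild type are given as a description, without a test. Edar binds the A1 form of ectodysplasin, passes the signal through its adaptor Edaradd to the NF-kB pathway, and is best known from the placodes that form hair, teeth and sweat glands, where it works downstream of Wnt signalling. Tnfrsf19, also called Troy, is known as a Wnt target and a marker of Lgr5-positive intestinal stem cells, and in neurons as a partner of the Nogo receptor. Apc restrains Wnt signalling by helping to destroy beta-catenin. Neither receptor belongs to the usual markers of blood progenitors.

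The study measured RNA on 15 arrays, 1 per sample, of mouse LSK cells, the bone marrow population without lineage markers and with Sca1 and Kit on its surface, from C57BL6 animals. All groups, wild type included, received MSCV-Cre-IRES-GFP virus ex vivo, were kept in medium with the cytokines mFlt3L, mTpo and mSCF, and were sorted for GFP. The genotypes at Apc were wt/wt (6 arrays), 15lox/15lox (3 arrays), in which Cre acts on both alleles, 15lox/1638N (3 arrays) and 15lox/1572T (3 arrays), which keep a hypomorphic allele each. Cre came from the virus and not from a cell type's promoter, and the labels do not name the animals behind the arrays. If arrays of a group share an animal, the p-values reflect technical spread only.

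Values are log2 probe set summaries, and a difference of 1 is a doubling of the signal. Wild-type arrays 4 to 6 were the control for every value below outside the alternative fits. The reason was that arrays 1 to 3 did not vary like independent arrays and their means nearly equalled those of arrays 4 to 6. They lay within 0.05 of each other at 96.7% of probe sets, against 20.2% to 26.1% for the other combinations of groups, and arrays 1 to 3 carried one identical value at 18.2% of probe sets, against 0.0177% for arrays 4 to 6. How these arrays came to match is not given in the sources used here. Array medians ran from 6.65 to 6.84. Of 4 probe sets of the targeted gene, Apc, 3 were lower on every mutant array than on wild-type arrays 4 to 6. Of these 1420956_at read 9.60 to 9.93 on wild-type arrays 4 to 6, 8.64 to 8.96 in 15lox/1572T, 8.47 to 8.67 in 15lox/1638N and 5.58 to 6.10 in 15lox/15lox. The other probe set, 1435543_at, was higher, with 10.23 to 10.66 in 15lox/15lox, 10.07 to 10.42 in 15lox/1572T and 9.82 to 9.91 in 15lox/1638N against 9.57 to 9.85 in wild type, where only 15lox/1638N overlapped. Which of these probe sets lie in the part removed by Cre was not examined. By Xist and Y-linked genes the 3 control arrays were male-type, while 2 of 3 arrays in 15lox/15lox and 1 of 3 in each of the other mutant groups were female-type. Of the LSK markers Kit averaged 11.2 and Cd34 13.3 in wild type. Of the 5 measured LSK markers 0 passed the test in any mutant group (limma, adjusted over 18194 genes), with 0 to 2 at an unadjusted p under 0.05. Over all genes 1.81% were called higher and 0.747% lower in 15lox/15lox, 1.08% and 2.41% in 15lox/1638N, and 0.0275% and 0.0824% in 15lox/1572T. At these shares 0 of 5 is not a result about the list. The differences from wild type in these 3 groups were -0.30, -0.60 and -0.40 for Flt3 and 0.87, -0.06 and 0.66 for Slamf1. Sca1 (Ly6a) had no probe set with a single symbol in the table used.

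Edar was close to background in wild-type cells and among the most increased transcripts of the mutants. Its probe set 1419724_at read 4.85, 4.40 and 4.58 on wild-type arrays 4, 5 and 6. In 15lox/1572T it read 4.51, 4.99 and 5.54 on arrays 1, 2 and 3. In 15lox/1638N it read 8.63, 9.01 and 9.55, and in 15lox/15lox 11.28, 10.86 and 11.22. The 15lox/1638N and 15lox/15lox arrays all lay far above the wild-type arrays and did not overlap with each other, whereas 15lox/1572T array 1 lay within the wild-type range and arrays 2 and 3 above it. The group means were 4.61 ± 0.23, 5.01 ± 0.52, 9.07 ± 0.46 and 11.12 ± 0.23 (SD, n = 3 each), from wild type over 15lox/1572T and 15lox/1638N up to 15lox/15lox. Against wild type the log2 difference was 6.51 ± 0.28 (SE) in 15lox/15lox, or 91.3-fold, and 4.46 ± 0.28 in 15lox/1638N, or 22.0-fold. In 15lox/1572T it was 0.41 ± 0.28, within the spread of the arrays. Among 45101 probe sets this difference ranked 2 in 15lox/15lox, 5 in 15lox/1638N and 1722 in 15lox/1572T. In wild type the probe set stood at percentile 16.4 of all probe set means, and in 15lox/15lox at percentile 85.5.

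Edar in wild type, and Tnfrsf19 in all but 15lox/15lox, could not be told from an absent transcript. As a reference for absence, 3 probe sets of Y-linked genes on the 4 female-type mutant arrays read 3.67 to 5.61, with a median of 4.04. The wild-type and 15lox/1572T values of Edar 1419724_at lay inside that range, and so did those of Tnfrsf19 1448147_at in wild type, 15lox/1572T and 15lox/1638N, given next. Folds against these groups are limited by background and describe the signal, not the transcript. In bulk samples of this kind, more cells with the transcript and more transcript per cell cannot be told apart.

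Tnfrsf19 was likewise highest in 15lox/15lox and next in 15lox/1638N, with smaller steps. Its probe set 1448147_at read 4.53, 4.47 and 4.60 on wild-type arrays 4, 5 and 6, and 4.55, 4.57 and 4.36 in 15lox/1572T. It read 5.35, 4.95 and 5.20 in 15lox/1638N and 6.68, 7.45 and 6.65 in 15lox/15lox. The 15lox/1572T and wild-type arrays overlapped, the 15lox/1638N arrays all lay above them by at least 0.35, and the 15lox/15lox arrays lay above all others, with array 2 the highest. The log2 difference from wild type was 2.39 ± 0.19 (SE) in 15lox/15lox, or 5.25-fold, 0.63 ± 0.19 in 15lox/1638N, or 1.55-fold, and -0.04 ± 0.19 in 15lox/1572T. The 15lox/1638N arrays, though above wild type, stayed within the range of the Y-linked probe sets, and only the 15lox/15lox arrays passed it.

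The promoters of both genes are shown because both receptors were highest in the same mutant group, where Cre acts on both alleles. In the other mutant groups Tnfrsf19 stayed within the range of the Y-linked probe sets. A further reason is that TCF/LEF factors, the DNA-binding partners of beta-catenin, have a short known motif. The sequences are the 250 bases before each start site in RefSeq on GRCm38.p6, given 5′ to 3′ in the direction of the gene, and the capitals mark CTTTGAT or its reverse complement ATCAAAG. Edar has 1 start site in the table, with the window at chr10:58675697-58675946 on the minus strand. Tnfrsf19 has 2, at chr14:61046856-61047105 (upstream start) and chr14:61037988-61038237 (downstream start), both on the minus strand.
Edar: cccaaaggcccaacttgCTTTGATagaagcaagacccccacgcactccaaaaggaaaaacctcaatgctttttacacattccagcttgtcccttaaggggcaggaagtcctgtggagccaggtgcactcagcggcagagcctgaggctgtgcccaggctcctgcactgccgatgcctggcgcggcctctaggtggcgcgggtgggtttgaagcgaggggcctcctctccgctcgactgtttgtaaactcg
Tnfrsf19, upstream start: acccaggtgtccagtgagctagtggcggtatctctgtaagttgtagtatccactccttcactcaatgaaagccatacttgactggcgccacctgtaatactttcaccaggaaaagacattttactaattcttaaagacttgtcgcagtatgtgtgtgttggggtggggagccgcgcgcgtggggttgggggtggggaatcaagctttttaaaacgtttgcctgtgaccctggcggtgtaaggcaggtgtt
Tnfrsf19, downstream start: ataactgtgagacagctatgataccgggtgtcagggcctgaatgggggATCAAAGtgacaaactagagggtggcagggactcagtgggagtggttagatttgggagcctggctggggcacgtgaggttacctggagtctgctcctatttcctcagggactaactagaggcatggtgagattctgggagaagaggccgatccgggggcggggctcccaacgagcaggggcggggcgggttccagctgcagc
Edar holds CTTTGAT at positions -233 to -227 from its start site, in the direction of the gene, and the downstream start of Tnfrsf19 holds it at -202 to -196 on the opposite strand. The upstream start of Tnfrsf19 has neither CTTTGAT nor the shorter CTTTGA in the window of 300 bases searched, which adds 50 bases after the start, and the same holds for the single window of Edaradd. On either strand CTTTGAT occurs in 3.73% of 32817 such windows of all genes and CTTTGA, which it contains, in 16.0%. A match is a string of letters and not a measured binding site, and which start site the cells used was not measured.

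The share of probe sets whose mutant arrays all lay above wild-type arrays 4 to 6 was 6.92% in 15lox/15lox, 12.3% in 15lox/1638N and 4.74% in 15lox/1572T. Of the 5 probe sets of Edar and Tnfrsf19, 2 did so in 15lox/15lox and in 15lox/1638N and 0 in 15lox/1572T. Since the genes were chosen for this contrast, nothing is read from these counts.

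**Figure D1:**
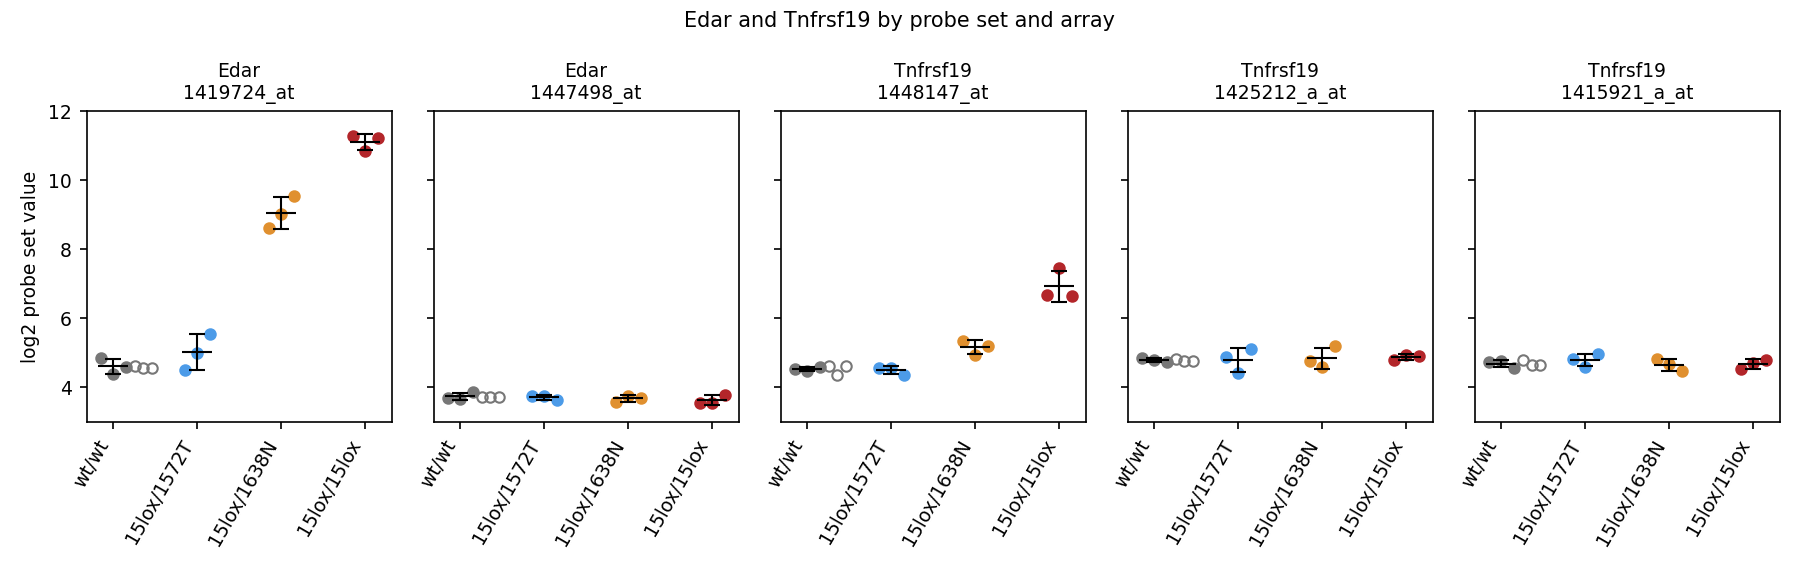
Log2 value (vertical axis) of each Edar and Tnfrsf19 probe set on every array, by Apc genotype (horizontal axis). Filled points are the arrays compared, bars their mean and SD (n = 3), and open points wild-type arrays 1 to 3; Edar 1419724_at climbs from 4.61 to 11.12 and Tnfrsf19 1448147_at from 4.53 to 6.93, while the other 3 probe sets stay between 3.54 and 5.19.

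The other probe sets of both genes stayed low on every array, within the range of the Y-linked probe sets or below it. Edar probe set 1447498_at read 3.54 to 3.86 over the 12 arrays, below percentile 2 on each, and its log2 difference from wild type was -0.11 ± 0.10 (SE) in 15lox/15lox. Tnfrsf19 probe set 1425212_a_at read 4.42 to 5.19 and 1415921_a_at 4.47 to 4.96, up to percentiles 29.5 and 23.2 of an array, with differences of 0.09 ± 0.18 and -0.01 ± 0.13 in 15lox/15lox. In all 3 of these probe sets the mutant arrays overlapped with wild type. The platform's table assigns 1415921_a_at and 1448147_at the same Tnfrsf19 transcript record, yet only the latter differed between the groups. Which part of each transcript the probes match was not used here. Averaging all probe sets of a gene would put the 15lox/15lox difference at 3.20 for Edar and 0.82 for Tnfrsf19, and the 15lox/1638N difference at 2.20 and 0.22.

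The genes were chosen for their rise over wild type. The mutant groups were therefore compared with each other by limma with Benjamini-Hochberg adjustment over all 45101 probe sets, in 3 contrasts. These contrasts use the same mutant arrays as the differences from wild type, and are thus not independent of the choice. Both genes lay near wild type in 15lox/1572T. The contrasts against that group therefore largely repeat the rise for which the genes were chosen, and are no separate evidence for it. Edar was higher in 15lox/15lox than in 15lox/1638N by 2.05 ± 0.28 (SE), or 4.15-fold (adjusted p = 0.0155), in a contrast where 0.173% of probe sets were called higher and 5.97% had all arrays of the first group above the second. The call was lost when 15lox/15lox array 1 (adjusted p = 0.0713) or 3 (0.0542) or 15lox/1638N array 1 (0.0718) or 2 (0.0822) was dropped. The difference itself ran from 1.84 to 2.30 over the arrays left out in turn. Edar exceeded 15lox/1572T by 6.11 ± 0.28 in 15lox/15lox (adjusted p = 5.4e-06) and by 4.05 ± 0.28 in 15lox/1638N (adjusted p = 0.000255), where 0.949% and 0.162% of probe sets were called higher and 5.27% and 7.04% lay wholly above.

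Tnfrsf19 was higher in 15lox/15lox than in 15lox/1638N by 1.76 ± 0.19 (SE), or 3.39-fold (limma, adjusted p = 0.00434), and than in 15lox/1572T by 2.44 ± 0.19, or 5.41-fold (adjusted p = 6.8e-05). With same-numbered arrays as blocks Tnfrsf19 kept the difference of 1.76 from 15lox/1638N but lost the call (limma, adjusted p = 0.0607). Its 15lox/1638N arrays all lay above those of 15lox/1572T, with a difference of 0.68 ± 0.19 that did not pass the test (adjusted p = 0.408) and a 95% interval from 0.26 to 1.09. None of the other 3 probe sets passed in any of the 3 contrasts (lowest adjusted p = 0.819). Since both lower groups lay within the background range, the folds between them and 15lox/15lox carry that limit.

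The adaptor of Edar rose along with it. Edaradd, the death domain protein that links Edar to the TRAF proteins, read 6.32, 6.14 and 6.28 on wild-type arrays 4, 5 and 6 at its probe set of highest mean, 1440162_x_at. It read 8.67, 8.44 and 8.43 in 15lox/15lox, 7.68, 7.53 and 8.36 in 15lox/1638N, and 6.49, 6.72 and 6.91 in 15lox/1572T. Every mutant array lay above every wild-type array, by a narrow margin in 15lox/1572T. The difference from wild type was 2.27 ± 0.19 (SE), or 4.81-fold, in 15lox/15lox (limma over 18194 genes, adjusted p = 3.72e-05) and 1.61 ± 0.19, or 3.06-fold, in 15lox/1638N (adjusted p = 0.00104). In 15lox/1572T the value of 0.46 ± 0.19 did not pass (adjusted p = 0.558). The ending of the probe set's name marks probes that may also match other transcripts, and a second probe set, 1437800_at, gave 2.45 ± 0.32 and 1.66 ± 0.32 in 15lox/15lox and 15lox/1638N (adjusted p = 0.00204 and 0.0336 over all probe sets). The other 3 probe sets of Edaradd did not pass. Both calls of Edaradd held in all 22 alternative fits, with differences of 1.05 to 2.31 in 15lox/15lox and 0.78 to 1.78 in 15lox/1638N, the lower ends being the mean of its 5 probe sets.

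No rise passed the test for the ligand or for later steps of the ectodysplasin pathway. Eda, the ligand, averaged 5.90 in wild type and 5.73 in 15lox/15lox (difference -0.17 ± 0.20, SE; limma, adjusted p = 0.822). Eda2r, the receptor for the A2 form of ectodysplasin, was already at 8.60 in wild type and gave 0.29 ± 0.29 in 15lox/15lox (adjusted p = 0.780) and -0.29 ± 0.29 in 15lox/1638N (adjusted p = 0.633). Traf6, an adaptor of the NF-kB branch, gave 0.10 ± 0.09 and -0.02 ± 0.09. Of 15 measured genes of the pathway, Edaradd rose and Traf1 fell in 15lox/15lox, where 1.81% of all genes were called higher and 0.747% lower. The same counts, 1 higher and 1 lower, were found in 15lox/1638N, where 1.08% and 2.41% of all genes were called. In 15lox/1572T 0 passed by limma, 3 having an unadjusted p under 0.05, against 0.0275% of all genes called higher and 0.0824% lower. The median difference of the 15 genes was -0.08, -0.16 and -0.10 in 15lox/15lox, 15lox/1638N and 15lox/1572T, beside -0.05, -0.03 and -0.03 for all genes.

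Traf1, a signalling adaptor of TNF receptors that is itself induced by NF-kB, was lower on every mutant array. It read 8.28 to 8.58 on wild-type arrays 4 to 6, 6.86 to 7.99 in 15lox/15lox, 6.70 to 6.84 in 15lox/1638N and 6.65 to 7.34 in 15lox/1572T. The share of all probe sets lying wholly below wild type is not given here, so nothing is read from the lack of overlap. Traf1 fell by 1.64 ± 0.25 (SE) in 15lox/1638N (limma, adjusted p = 0.00604). In 15lox/15lox it fell by 1.08 ± 0.25 (adjusted p = 0.0468), a call lost with quantile normalization (0.0515), on dropping any of wild-type arrays 4 to 6, 15lox/15lox array 1 or 2, 15lox/1572T array 3 or any 15lox/1638N array (adjusted p from 0.0619 to 0.195) and with sex type as a covariate (adjusted p = 0.206). The value of -1.38 in 15lox/1572T did not pass (limma, adjusted p = 0.103), but did without 15lox/15lox array 3 (0.0116) and with array weights (0.0134). It also passed with all 6 wild-type arrays (0.00502) and with wild-type arrays 1 to 3 kept as a separate group (0.0433). Arrays 1 to 3 did not vary like independent arrays, so p-values of fits that use them can be too small. The direction of Traf1 was thus opposite to that of Edar and Edaradd.

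**Figure D2:**
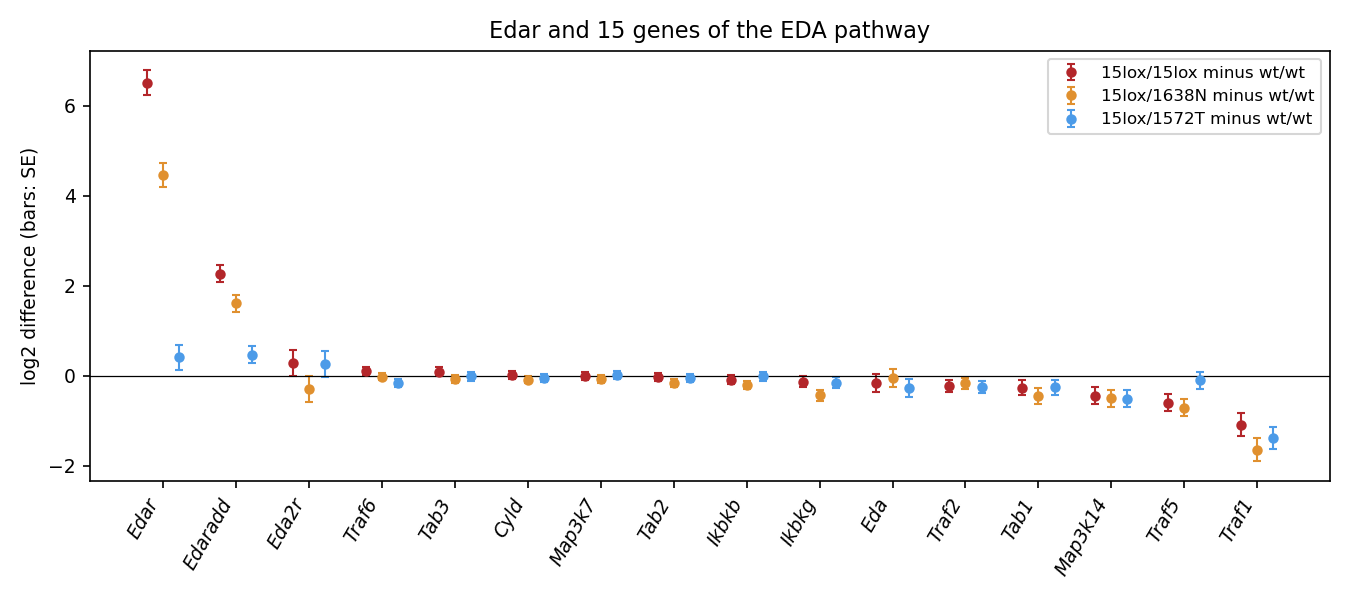
Log2 difference from wild-type arrays 4 to 6 (vertical axis, bars SE from limma) of Edar and 15 genes of the ectodysplasin pathway (horizontal axis) in the 3 mutant genotypes. Edar and Edaradd stand above the rest in 15lox/15lox and 15lox/1638N, Traf1 lies lowest, and the ligand Eda stays near 0.

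NF-kB factors and their common targets were measured as a further step of the pathway. Of 18 measured genes, which include the subunits Rela, Relb, Rel and Nfkb2, the inhibitor Nfkbia and the feedback enzyme Tnfaip3, 0 passed in each of the 3 mutant groups by limma, with 2, 6 and 2 at an unadjusted p under 0.05 in 15lox/15lox, 15lox/1638N and 15lox/1572T. The shares over all genes, 1.81% higher and 0.747% lower in 15lox/15lox, 1.08% and 2.41% in 15lox/1638N and 0.0275% and 0.0824% in 15lox/1572T, are such that 0 calls in a list of this size is not a result about the list, and this holds for the placode and partner lists too. Their median difference was -0.01 in 15lox/15lox and -0.29 in 15lox/1638N, beside -0.05 and -0.03 for all genes. Of 10 measured genes known as Edar targets in the skin placode, 0 passed as higher in any group. In 15lox/15lox 0 passed by limma, with 4 at an unadjusted p under 0.05. These were Fst at 0.67 (adjusted p = 0.0675), Cxcl10 at 0.65 (0.214), Wnt10a at -0.44 (0.163) and Shh at -0.37 (0.309). The count called there was 0 to 2 over the alternative fits. Ltb, the lymphotoxin beta gene on that list, fell by 1.89 ± 0.40 (SE) in 15lox/1638N (limma, adjusted p = 0.0270), a call lost on dropping any of wild-type arrays 4 to 6 or 15lox/1638N array 1 or 2 (adjusted p from 0.0626 to 0.112). These are RNA levels, and NF-kB activity as such was not measured.

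No rise of another measured TNF receptor passed the test. At the shares of all genes called higher, 0 rises in a list of 25 is not a result about the family. Of 25 further receptor genes with a probe set, 0 rose in 15lox/15lox and 1 fell (1.81% and 0.747% over all genes), Tnfrsf25, a death receptor of T cells also called DR3. Its level fell by 0.90 ± 0.14 (SE) in 15lox/15lox (limma, adjusted p = 0.00316) and by 0.93 ± 0.14 in 15lox/1638N (adjusted p = 0.00457). In 15lox/1638N 0 rose and 3 fell (1.08% and 2.41% over all genes), the others being Tnfrsf18 (GITR, -0.70 ± 0.17, adjusted p = 0.0431) and the nerve growth factor receptor Ngfr (-0.41 ± 0.09, adjusted p = 0.0307). The calls of Tnfrsf18 and Ngfr ended without any of wild-type arrays 4 to 6 and without 15lox/1638N array 1, with adjusted p from 0.0780 to 0.134, and that of Tnfrsf18 also without 15lox/1638N array 2, 15lox/15lox array 1 or 15lox/1572T array 1 or 2 (0.0558 to 0.145), that of Ngfr without 15lox/1638N array 3 (0.0572). The call of Tnfrsf18 was also lost with quantile normalization (0.0513), and that of Ngfr with median centring (0.0549), the sex covariate (0.058) and the mean of its 3 probe sets, -0.12 (0.521). In 15lox/1572T 0 passed, with 3 at an unadjusted p under 0.05. Among all 27 receptors with Edar and Tnfrsf19 included, these ranked 1 and 2 by their difference in 15lox/15lox and in 15lox/1638N, and the next in 15lox/15lox was Tnfrsf11a (RANK) with 0.43, which did not pass. In 15lox/1572T Edar ranked 1 with its 0.41 and Tnfrsf19 ranked 9. Since Edar and Tnfrsf19 were chosen for being higher in the mutants, nothing is read from these ranks. The 25 receptors had a median difference of -0.15, -0.14 and -0.14 in 15lox/15lox, 15lox/1638N and 15lox/1572T, against -0.05, -0.03 and -0.03 for all genes. Leaving out 1 array at a time gave 1 to 2 called receptors in 15lox/15lox and 1 to 3 in 15lox/1638N.

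**Figure D3:**
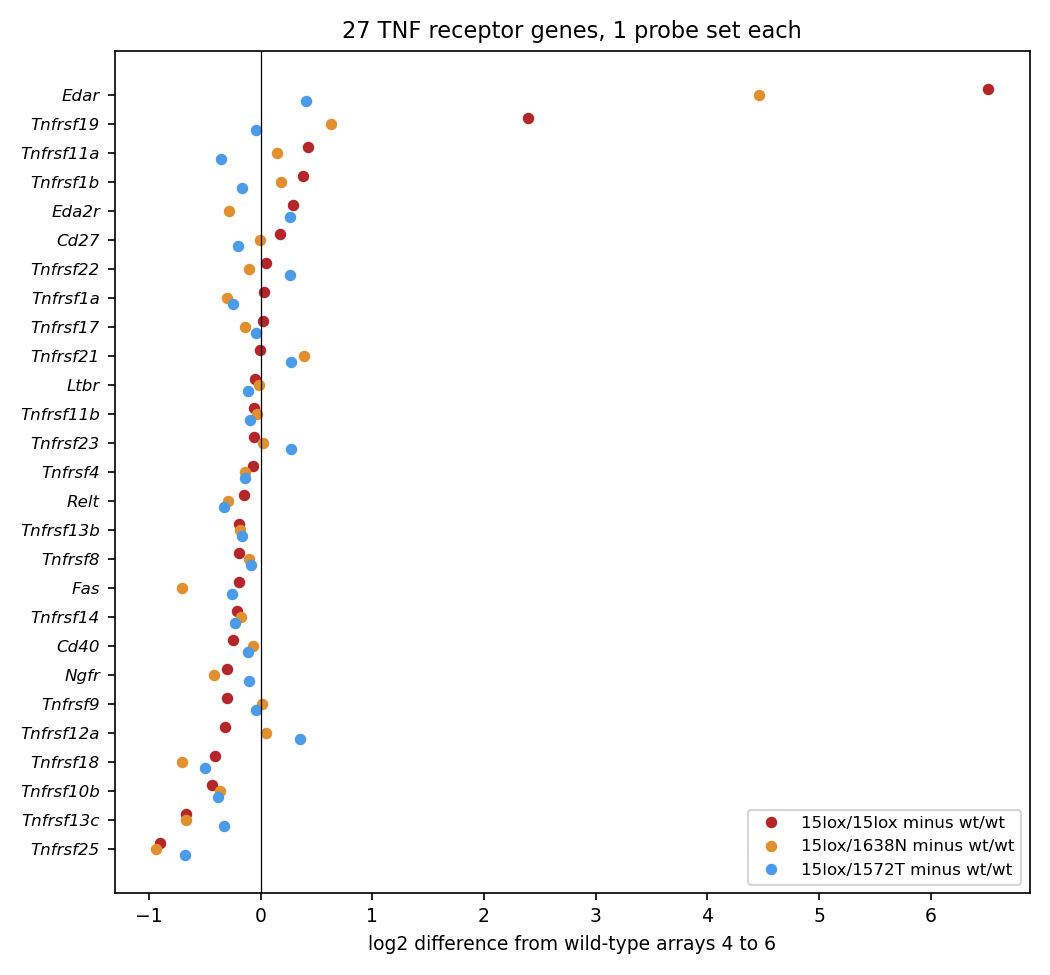
Log2 difference from wild-type arrays 4 to 6 (horizontal axis) of 27 TNF receptor genes (vertical axis, ordered by the 15lox/15lox value), 1 probe set each, in the 3 mutant genotypes. Edar and Tnfrsf19, which were chosen for being higher in the mutants, are at 6.51 and 2.39 in 15lox/15lox, and the other 25 lie between -0.90 and 0.43 there.

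Among 14 measured TNF ligands 1 rose in 15lox/15lox, against 1.81% of all genes, Fasl, the ligand of the death receptor Fas. It read 4.11, 4.22 and 4.14 on wild-type arrays 4, 5 and 6, 8.09, 7.61 and 8.54 in 15lox/15lox, 5.36, 5.07 and 6.39 in 15lox/1638N and 4.45, 3.99 and 4.30 in 15lox/1572T. The steps had the same order of genotypes as those of Tnfrsf19, with wild type and 15lox/1572T overlapping. The Fasl values of these 2 groups lay within the range of the Y-linked probe sets, so folds against them are limited by background. The difference from wild type was 3.93 ± 0.31 (SE), or 15.2-fold, in 15lox/15lox (limma, adjusted p = 2.18e-05) and 1.45 ± 0.31 in 15lox/1638N (adjusted p = 0.0270), where it was lost on dropping any of wild-type arrays 4 to 6 or 15lox/1638N array 1 (0.0592 to 0.0937) and its value was 0.90 as the mean of its probe sets. Its receptor Fas did not pass in 15lox/15lox (-0.20) or 15lox/1638N (-0.71). In 15lox/1638N Fasl rose and Ltb fell, and in 15lox/1572T 0 ligands passed, with 1 at an unadjusted p under 0.05. The count of 2 ligands in 15lox/1638N was 0 without any of wild-type arrays 4 to 6 or without 15lox/1638N array 1, and 1 without array 2.

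Genes linked to Tnfrsf19 in other tissues were also measured. Of 10 such genes, which include Rtn4 (Nogo), its receptor Rtn4r, the co-receptor Lingo1 and the R-spondin receptors Lgr4, Lgr5 and Lgr6, 0 passed in 15lox/15lox by limma, with 1 at an unadjusted p under 0.05. Lgr5, the marker that goes with Tnfrsf19 in the intestine, averaged 4.67 ± 0.01 in wild type and 4.87 ± 0.17 in 15lox/15lox (SD, n = 3 each; limma, adjusted p = 0.583). It rose by 0.60 ± 0.12 (SE) in 15lox/1638N (adjusted p = 0.0229), where Ngfr fell, a call lost on dropping any of wild-type arrays 4 to 6 or 15lox/1638N array 1 or 2 (0.0748 to 0.103). The count of 2 was 0 without any of those wild-type arrays or 15lox/1638N array 1, and 1 without array 2 or 3. In 15lox/1572T 0 passed, and 0 had an unadjusted p under 0.05.

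Many of the usual readouts of the Wnt pathway rose in 15lox/15lox, and fewer in 15lox/1638N. Of 19 measured Wnt targets other than Tnfrsf19 and Edar, 11 rose and 0 fell in 15lox/15lox, 7 rose and 0 fell in 15lox/1638N, and 0 passed in 15lox/1572T, with 1 at an unadjusted p under 0.05. Over all genes 1.81%, 1.08% and 0.0275% were called higher, and the list was written with earlier results of these arrays known and is no independent evidence of its direction. The medians were 1.28, 0.56 and 0.08, beside -0.05, -0.03 and -0.03 for all genes. The secreted inhibitor Wif1 rose by 1.89 ± 0.18 (SE) in 15lox/15lox (limma, adjusted p = 0.000138) and gave 0.28 in 15lox/1638N (adjusted p = 0.435), and the cytoplasmic inhibitor Nkd1 rose by 2.39 and 0.98. The transcription factor Lef1 rose by 3.94 and 3.92 at its probe set of highest mean and by 2.16 and 2.04 as the mean of its probe sets, the surface inhibitor Apcdd1 by 3.05 and 2.14, and the growth factor Bmp4 by 4.47 and 2.10. In 15lox/1638N the call of Bmp4 was lost on dropping any of wild-type arrays 4 to 6 or 15lox/1638N array 2 (0.0646 to 0.0915) and that of Nkd1 without wild-type array 5 (0.0527). The 15lox/1638N count was 3 to 7 with 1 array left out, the lowest without wild-type array 5, and 4 without wild-type array 6 or 15lox/1638N array 2.

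Axin2, a widely used Wnt target and a part of the beta-catenin degradation complex, was set beside Edar array by array. In 15lox/1572T Axin2 read 7.69, 8.80 and 9.32 on arrays 1, 2 and 3, where Edar read 4.51, 4.99 and 5.54 and Edaradd 6.49, 6.72 and 6.91. Array 1 was thus nearest to wild type and array 3 farthest from it for all 3 genes, while Tnfrsf19 was lowest on array 3 at 4.36. The Edar values lie in the background range, and in 15lox/15lox the order differed, with Axin2 at 12.28, 12.29 and 11.94 and Edar lowest on array 2. Axin2 read 7.26, 7.38 and 7.57 on wild-type arrays 4, 5 and 6. Its difference in 15lox/1572T, 1.20 ± 0.31 (SE), did not pass (limma, adjusted p = 0.294), but did without array 1 (adjusted p = 0.0131). The Edar difference in 15lox/1572T was 0.14 to 0.66 with 1 array left out.

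In 15lox/1638N array 3 was the highest of its group for Edar at 9.55, Axin2 at 11.51, Edaradd at 8.36, Lef1 at 11.17 and Fasl at 6.39, whereas Tnfrsf19 was highest on array 1. In 15lox/15lox array 2 was the highest for Tnfrsf19 at 7.45 and the lowest for Edar at 10.86 and for Fasl at 7.61. With 3 arrays per group no correlation within a genotype was computed. Array 3 of 15lox/1638N, arrays 2 and 3 of 15lox/15lox and array 1 of 15lox/1572T were the female-type arrays. With sex type as a covariate the differences of Edar from wild type were 6.57, 4.49 and 0.44 in 15lox/15lox, 15lox/1638N and 15lox/1572T, and those of Tnfrsf19 2.28, 0.58 and -0.10.

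**Figure D4:**
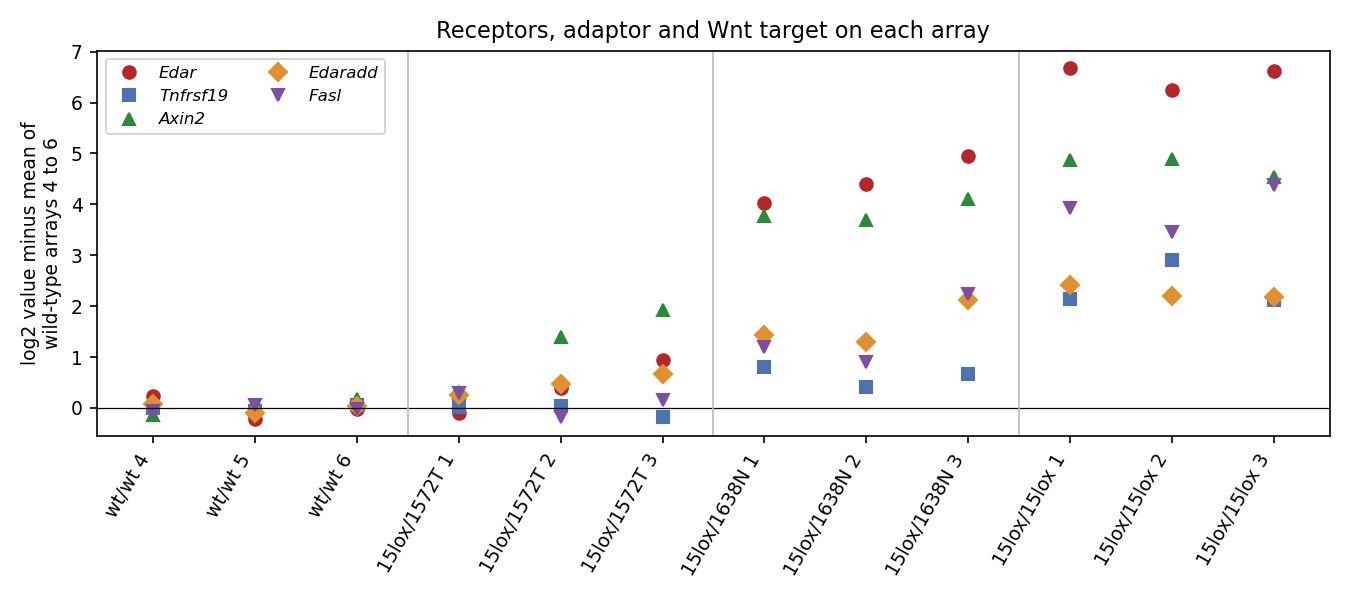
Log2 value minus the mean of wild-type arrays 4 to 6 (vertical axis) of Edar, Tnfrsf19, Axin2, Edaradd and Fasl on each of the 12 arrays (horizontal axis, grouped by Apc genotype). On 15lox/1572T array 3 Axin2, Edar and Edaradd lie above the 3 wild-type arrays, Fasl slightly above them and Tnfrsf19 below, and in 15lox/15lox all 5 genes are high.

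The genes closest to each receptor over the 12 arrays were taken by the root mean square difference of log2 values after centring on wild-type arrays 4 to 6. For Edar these were the plasma glycoprotein gene Ahsg (0.643), the Slit receptor Robo1 (0.684), the lipid phosphatase Plpp1 (0.723), the retinaldehyde dehydrogenase Aldh1a3 (0.776) and the sulfotransferase Sult1a1 (0.852). Their differences from wild type in 15lox/15lox were 6.18, 5.72, 5.98, 5.56 and 7.10, and in 15lox/1638N 3.57, 3.88, 4.87, 3.38 and 5.79, so that each had a large first and a smaller second value. In 15lox/1572T Plpp1 gave 1.59 and the other 4 between -0.17 and 0.26. For Tnfrsf19 the closest were Armh4 (0.275), Atp13a4 (0.288), the nuclear receptor Nr4a3 (0.337), the lipid phosphatase Plpp3 (0.354) and the kinase gene Hunk (0.364). Those 5 gave 1.84 to 2.60 in 15lox/15lox and 0.32 to 0.79 in 15lox/1638N. No gene was among the 5 for both receptors. The measure describes likeness over arrays that share their genotypes and carries no test.

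Markers of other cell types were measured beside the receptors. Of 9 skin epithelial markers 0 passed by limma in 15lox/15lox, 15lox/1638N or 15lox/1572T, and none of the 9 had a positive difference in 15lox/15lox. The defining keratins Krt5 and Krt14 averaged 5.89 and 5.04 in wild type and 5.61 and 4.91 in 15lox/15lox. Other markers of the list read higher. Krt18, Dsp, Cdh1 and Epcam averaged 11.45, 10.63, 7.72 and 6.88 in wild type and 11.26, 10.61, 7.10 and 6.60 in 15lox/15lox. In wild type 5 of the 9 averaged below the array median. The log2 of the summed level of the 9 markers was 12.2 to 12.4 on wild-type arrays 4 to 6, 11.8 to 12.1 in 15lox/1572T, 11.5 to 11.8 in 15lox/1638N and 11.7 to 12.6 in 15lox/15lox. Of 8 marrow stroma markers Lepr, the leptin receptor, rose by 0.84 ± 0.18 (SE) in 15lox/15lox (limma, adjusted p = 0.0296), a call lost on dropping any of wild-type arrays 4 to 6 or 15lox/15lox array 1 or 3 (0.0532 to 0.126), with median centring (0.0663), with the sex covariate (0.113) and as the mean of its probe sets, 0.30 (0.0951). The genes Col1a1, Col3a1 and Cxcl12 averaged 5.59, 4.37 and 5.48 in 15lox/15lox against 5.55, 4.55 and 5.49 in wild type. Of the 8 markers 5 had a positive and 3 a negative difference there. Among them were 0.27 for Col1a2, 0.25 for Pdgfra and -0.42 for Pdgfrb, which did not pass. The log2 of the summed level of all 8 stroma markers was 11.5 on wild-type arrays 4 to 6 and 10.9 to 11.3 in 15lox/15lox. The highest of the 8, Pdgfrb, averaged 11.32 in wild type and 10.90 in 15lox/15lox, and 7 of the 8 averaged below the array median in both groups. Of 5 endothelial markers and 3 markers of mature lineages 0 passed in any group by limma. Over all genes 1.81% were called higher and 0.747% lower in 15lox/15lox, 1.08% and 2.41% in 15lox/1638N, and 0.0275% and 0.0824% in 15lox/1572T. At these shares 0 calls in the skin, endothelial or lineage list is not a result about it. At an unadjusted p under 0.05 there were 2, 3 and 2 skin markers, 1, 1 and 0 endothelial and 0, 1 and 2 lineage markers in 15lox/15lox, 15lox/1638N and 15lox/1572T. Their part in the rise of Edar and Tnfrsf19 was not tested.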

How the data were processed

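The authors deposited log2 values, 1 per probe set and array, in the series matrix; the log2 scale was taken from the range of the values. RMA and the mm9 build are named, without role or version, per the submitters' processing notes, and per the labels' protocols RNA was amplified with the Nugen Ovation V2 kit. RMA uses all arrays together and shrinks differences of dim probe sets, and the precision is limited by 3 arrays per group. Values were used as deposited. Probe sets were named through the platform table (34958 with 1 symbol, 932 with several, 9211 with none).

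limma 3.58.1 in R 4.3.3 was fitted to 12 arrays (lmFit, eBayes, Benjamini-Hochberg, threshold 0.05) over all 45101 probe sets, and over 18194 genes for the lists, each by its probe set of highest mean; the code was tested on simulated data. Wild-type arrays 1 to 3 were left out of the fit and used in alternatives. The members, lists and tests were chosen with earlier results of these data known. Members of a list past the threshold in a contrast with wild type were named, at most 6 of lowest p, with Axin2, Lef1, Nkd1, Lgr5, Eda, Eda2r, Edaradd and Traf6 named whatever their values; likeness is the root mean square difference given above. Alternatives were other control arrays, normalizations, weights, filters and covariates, and leaving out each array.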

Additional observations from a re-analysis of the deposited data

Results flagged for a closer look

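On single arrays, wild-type array 6 stood apart from the other wild-type arrays at Edar probe set 1447498_at with 3.86, and wild-type array 5 at Fasl with 4.22. At both probe sets wild-type arrays 1 to 3 hold one identical value, so the gap rests on repeated values and says nothing about arrays 5 and 6.

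The effects of the mutant genotypes differed from each other by the limma contrasts between them. For Edar 1419724_at these differences were 2.05 between 15lox/15lox and 15lox/1638N, 6.11 between 15lox/15lox and 15lox/1572T, and 4.05 between 15lox/1638N and 15lox/1572T. For Tnfrsf19 1448147_at they were 1.76 and 2.44 between 15lox/15lox and 15lox/1638N or 15lox/1572T. Both genes lay near wild type in 15lox/1572T, so the differences from that group largely repeat the rise for which the genes were chosen. Edaradd differed by 1.80 between 15lox/15lox and 15lox/1572T and by 1.15 between 15lox/1638N and 15lox/1572T in the fit over genes (adjusted p = 0.0251), where adjustment over all probe sets gave 0.0517 and probe set 1437800_at 0.208. Fasl differed by 2.48 between 15lox/15lox and 15lox/1638N and by 3.84 between 15lox/15lox and 15lox/1572T.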

How the results depend on the processing

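No direction of a called result reversed. Same-numbered mutant arrays correlated at -0.07 to 0.38 in their deviations (9 pairs) and others at -0.35 to 0.20 (18 pairs). Not every same-numbered pair was above 0.1, so the numbers were not taken as pairs. The 3 pairs of 15lox/15lox and 15lox/1572T gave 0.14 to 0.21, and the block changed no call of Edar or Tnfrsf19 between them. Those of 15lox/15lox and 15lox/1638N gave 0.08, 0.37 and 0.38, against -0.35 to 0.04 for unlike numbers of these groups. With the replicate block Tnfrsf19 between 15lox/15lox and 15lox/1638N was 1.76 with adjusted p 0.0607 by limma, so this call was lost. Only wild-type arrays 1 to 3 share their numbers with mutant arrays, so with the block the differences from wild type rested on those arrays and not on arrays 4 to 6. With that control the block gave 1 and 5 ectodysplasin pathway genes in 15lox/15lox and 15lox/1638N. It gave 479, 940 and 29 called genes in all, against 465, 636 and 20. These totals ran over 262 to 1199, 515 to 2874 and 8 to 196 in the alternatives with all arrays kept. They were 292 to 512, 219 to 962 and 5 to 27 with 1 array left out. Edar between 15lox/15lox and 15lox/1638N ran from 1.84 to 2.30 with 1 array left out. The mean of all probe sets of a gene gave Edar 3.20 and 2.20 and Tnfrsf19 0.82 and 0.22 in 15lox/15lox and 15lox/1638N. Called list members changed as follows, in the order 15lox/15lox, then 15lox/1638N, then 15lox/1572T. All 6 wild-type arrays gave 2 TNF receptors, 1 NF-kB gene, 2 placode genes and 1 Tnfrsf19 partner, then 6 pathway genes, 5 receptors, 3 NF-kB and 2 placode genes, then 1 pathway gene and 1 receptor. A separate group for wild-type arrays 1 to 3 gave 1 NF-kB and 1 placode gene, then 2 placode genes, then 1 pathway gene. Array weights gave 1 NF-kB and 1 placode gene, then 5 pathway genes, 6 receptors, 4 NF-kB and 3 placode genes, then 1 pathway gene and 1 receptor. Quantile normalization gave 1 pathway and 1 placode gene in 15lox/15lox, median centring 1 partner in 15lox/1638N, the sex covariate 1 pathway gene and then 1 partner, and a trended robust fit 1 placode gene. Keeping genes above the median level gave 0 receptors, 0 ligands and 6 Wnt targets, then 1 receptor, 1 ligand and 0 partners, and leaves out Tnfrsf19; the mean of probe sets gave 1 NF-kB and 1 placode gene, then 1 partner. With 1 array left out the pathway counts were 1 to 3, 2 to 4 and 0 to 1, receptors 1 to 2 and 1 to 3, placode genes 0 to 2 and 0 to 2, NF-kB genes 0 to 1 and 0 to 1, ligands 0 to 2 and partners 0 to 2 in 15lox/1638N, and Wnt targets 3 to 7 there and 0 to 1 in 15lox/1572T. The fits with all 6 wild-type arrays, with arrays 1 to 3 as a separate group and with the block used arrays that did not vary like independent arrays. Their p-values can therefore be too small and their counts too high. The cause of the changes between settings was not tested.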
